A study of Rattus norvegicus with 16 samples.

Results

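Liver and spleen were compared by their small RNAs in 4 of the 16 libraries of the series, a liver and a spleen of a BN-Lx rat and a liver and a spleen of an SHR rat. Both animals were adult males for which the labels give no treatment, the tissues were whole, and all tissues of a strain came from 1 rat, so each strain gave 1 liver and spleen pair and strain and animal cannot be told apart. The 4 libraries are those of a six-tissue set taken from these 2 rats and were chosen by their tissue labels, not by any measured value. For each library the reads that match a pre-miRNA hairpin perfectly were summed over the 5p or 3p arm, the side of the hairpin from which a mature miRNA is cut. The arm was named here from the position of the reads on the hairpin, and for the 224 arms whose RefSeq sequence lay in its RefSeq hairpin, 224 lay on the side so named. Of 538 arms of 325 hairpins with a read in the 4 libraries, 281 had at least 10 reads in at least 2 of them and were tested.

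miRNAs are short RNAs that guide the silencing complex to messenger RNAs, mainly by their seed, the bases near the 5' end that pair with the target. Several are nearly private to a cell lineage. Hepatocytes, which make up most of the liver's mass, are known for mir-122, and blood cells for mir-142, with mir-223 in granulocytes and monocytes, mir-150 in mature lymphocytes and mir-144 and mir-451 in red cell precursors. The spleen filters blood and holds the lymphocytes of the white pulp, and in adult rodents it also makes red blood cells. Both organs are rich in vessels, whose endothelium is known for mir-126 and whose smooth muscle is known for mir-143 and mir-145. In whole tissue, fewer cells of a type and less of a miRNA per cell cannot be told apart.

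The mature sequences of the arms on which the comparison turned are shown first, from RefSeq (GRCr8), 5' to 3', with bases 2 to 8, the seed, in capitals. Of the 281 tested arms, 254 (90.4%) had a mature sequence there. The first set was higher in liver.
rno-miR-122-5p: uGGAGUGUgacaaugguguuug
rno-miR-192-5p: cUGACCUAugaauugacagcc
rno-miR-194-5p: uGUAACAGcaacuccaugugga
rno-miR-31a-5p: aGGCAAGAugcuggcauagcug

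The second set was higher in spleen and holds the miRNAs of blood cells, with mir-20b and mir-363 of a cluster related to mir-17-92.
rno-miR-142-3p: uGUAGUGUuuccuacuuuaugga
rno-miR-223-3p: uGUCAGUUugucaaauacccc
rno-miR-342-3p: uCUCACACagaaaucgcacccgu
rno-miR-451-5p: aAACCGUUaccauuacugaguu
rno-miR-144-5p: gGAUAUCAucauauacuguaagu
rno-miR-20b-5p: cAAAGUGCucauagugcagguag
rno-miR-363-3p: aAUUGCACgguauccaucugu

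The third set was also higher in spleen and stood in none of the blood cell lists.
rno-miR-204-5p: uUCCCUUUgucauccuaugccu
rno-miR-211-5p: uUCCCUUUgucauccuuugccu
rno-miR-217-5p: uACUGCAUcaggaacugacugg
mir-204-5p and mir-211-5p have the same seed and, counted from 1 at the 5' end, differ by the single substitution A17U from mir-204-5p to mir-211-5p. The last set was not called in either direction.
rno-miR-126a-3p: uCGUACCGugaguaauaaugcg
rno-miR-125a-5p: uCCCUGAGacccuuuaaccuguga
rno-miR-125b-5p: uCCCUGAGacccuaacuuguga

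mir-192 and mir-194-2 lay together within 259 bases of chromosome 1 (chr1:212994038-212994296 for the outer ends of their tested arms). mir-144 and mir-451 lay within 198 bases of chromosome 10 (chr10:63459409-63459606). The mature mir-122-5p was at chr18:61028831-61028852, mir-223-3p at chrX:65151450-65151470, mir-142-3p at chr10:73055155-73055177 and mir-126-3p at chr3:29813219-29813240, the last within the interval of Egfl7. mir-342-3p (chr6:133329715-133329737) lay within Evl, mir-204-5p (chr1:229743493-229743514) within Trpm3 and mir-211-5p (chr1:127189353-127189374) within Trpm1. All positions are of GRCr8, on the plus strand, and come from RefSeq, while the deposited files give positions on hairpins only. The strand of the surrounding genes was not compared.

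The liver libraries held 468081 (BN-Lx) and 501209 (SHR) reads and the spleen libraries 737949 and 497001. Both arms of mir-122 took 34.42% and 38.98% of the liver reads and 0.01857% and 0.01087% of the spleen reads, so levels (rpm, reads scaled to a common library size) were scaled without mir-122 by TMM, a trimmed mean of ratios between libraries. A count of 0 allowed up to 7.94 and 7.22 rpm in the livers and 5.03 and 5.62 rpm in the spleens (3 reads). The SHR liver library was amplified with more PCR cycles than the other 3, and its part in the differences between the strains was not tested. The defining markers followed the labels: mir-122 was far above spleen in both livers, and mir-223 and mir-142 were far above liver in both spleens (values below).

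In a quasi-likelihood fit (edgeR) with the strain as a term, 95 of the 281 arms differed between liver and spleen at an adjusted p under 0.05 (33.8%). Of these, 32 were higher in liver (11.4% of tested arms) and 63 in spleen (22.4%). The median arm was lower in liver by 0.60 on the log2 scale (liver minus spleen -0.60), so the 2 counts depended on how the libraries were scaled to each other. Under 6 scalings (TMM without and with mir-122, DESeq2's median of ratios, total reads, the outlier-corrected mean of the study and equal levels of the median tested arm), the counts ranged from 31 to 49 in liver and from 32 to 63 in spleen, and spleen took from 39.5% to 66.3% of the calls. Under every one of the 6, 30 arms (10.7%) were called higher in liver and 32 (11.4%) in spleen. These 62 arms are given below as held under every scaling. Other calls are those of TMM without mir-122.

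The libraries of a tissue did not overlap those of the other for most arms. Both livers were above both spleens for 68 tested arms (24.2%), and both spleens were above both livers for 145 (51.6%). These 2 counts were taken only under TMM without mir-122, where the median log2 fold change was -0.60. By the study's rule of at least 5-fold in each strain on its own, here between these 2 tissues only, 23 arms were higher in liver (8.19%) and 29 in spleen (10.3%), and 22 and 28 of them passed the test. An exact permutation test of 2 against 2 libraries could give no p below 0.333, so the test rests on the spread pooled over the 12 libraries of the six-tissue set.

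A set of 4 further liver libraries, 2 of each strain, is not paired with these spleens. With them in place of the 2 livers, and with reads of at least 17 nt, 97 of 329 tested arms were higher in liver (29.5%) and 69 in spleen (21%). Sample set and tissue cannot be told apart in those values, which are given below for some arms only. Their log2 values come from a fit with TMM factors. The rpm printed for the further livers were scaled by total reads without mir-122, with no TMM factor. Those rpm are therefore not on the scale of the 4 libraries. Minimum read counts also bear on the counts in the lists that follow, since 18 of the 281 arms met the minimum in both livers but not in both spleens and 67 in both spleens but not in both livers. Of these 67, 9 were among the lymphocyte arms and 6 among those of the mir-17-92 clusters, and 3 of the 18 were hepatocyte arms.

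**Figure D1:**
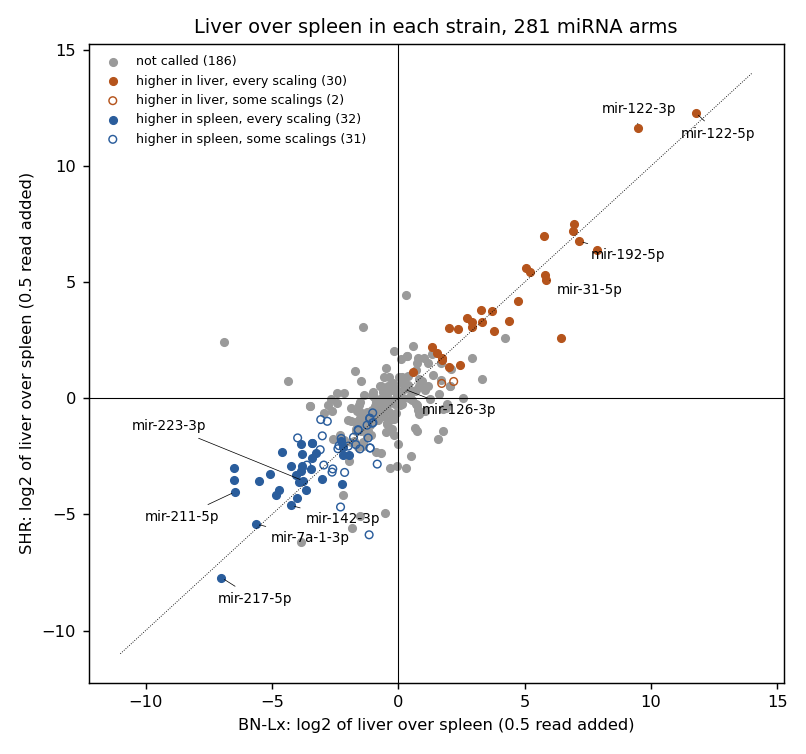
Log2 ratio of liver to spleen in the BN-Lx rat (x axis) and in the SHR rat (y axis) for each of the 281 tested miRNA arms, with 0.5 read added; each point is 1 arm, filled where the call held under every scaling, and the dotted line marks equal ratios. The 30 filled liver arms are at the upper right, led by mir-122-5p, and the 32 filled spleen arms at the lower left, with mir-217-5p lowest.

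The hepatocyte list (mir-122, mir-192, mir-194-1, mir-194-2, mir-802 and mir-148a) had the highest median of all lists compared. Of its 6 hairpins 5 had reads, and 8 of 8 tested arms were higher in liver, all under every scaling, beside 11.4% of all arms. Of the 8, 3 met the minimum of reads in both livers but not in both spleens, so this count is a description. The log2 fold changes of the 8 ranged from 5.38 to 12.04 with a median of 7.02, beside -0.60 over all arms. Together the list's arms held 613867 and 598590 rpm in the livers and 1596 and 1342 rpm in the spleens.

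mir-122-5p, which supports cholesterol and fatty acid metabolism of the hepatocyte, had 124614 and 161586 reads in the BN-Lx and SHR livers and 56 and 41 in the spleens. In rpm these were 329673 and 388964 against 93.8 and 76.8. Both livers were thus far above both spleens, with a log2 fold change of 12.04 (95% interval 11.16 to 12.91, adjusted p = 1.8e-08, n = 2 libraries a tissue, edgeR). The other arm, mir-122-3p, had 36497 and 33796 reads in liver and 81 and 13 in spleen (10.15, 7.88 to 12.41, adjusted p = 7.59e-05). mir-122 was not at 0 in the spleens, and the source of these few reads was not tested.

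mir-192-5p was the next most abundant of the list. It had 68175 and 49419 reads in liver and 749 and 586 in spleen, and the tissues were far apart (log2 6.96, interval 6.33 to 7.60, adjusted p = 7.85e-08). mir-192 is also known from kidney, where its mean was 74250 rpm, between the livers (180361 and 118960 rpm) and the spleens (1255 and 1097 rpm). mir-194-1-5p and mir-194-2-5p, copies of 1 mature sequence whose shared reads the authors divided between them, had 436 and 578, and 750 and 1465, reads in liver. In spleen they had 18 and 16.5, and 35 and 38.5. Both rose in liver by a log2 of 5.38, with adjusted p of 0.00432 and 0.00094. hsa-mir-802-5p, deposited under the name of its human homologue, had 802 and 1133 reads in liver and 5 and 17 in spleen (6.95, adjusted p = 0.000236). Its 3p arm had 39 and 70 reads in liver and 0 in both spleens, at least 20.5-fold higher in liver in BN-Lx (a count of 3 reads taken for 0), with a greater bound in SHR.

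Outside the list, both arms of mir-31 were higher in liver. mir-31-5p had 4738 and 2387 reads in liver and 129 and 89 in spleen, and mir-31-3p had 611 and 441 against 17 and 14. Their log2 fold changes were 5.51 and 5.56 (adjusted p = 5.77e-05 and 0.000236). The mean of mir-31-5p in the other 4 tissues of the set was 265 to 1779 rpm, below both livers (12535 and 5746 rpm). In the further livers mir-31-5p ran from 1383 to 9739 rpm (no TMM factor), and it was called higher than in spleen (log2 5.39, adjusted p = 0.00061). The 3p arm of mir-192, a hairpin of the hepatocyte list, was also higher in liver (716 and 620 reads against 9 and 5, log2 7.08, adjusted p = 1.24e-05). It met the minimum of reads through the livers alone, so these values are a description.

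Liver's 32 arms were not all highest in liver. Over the mean of both strains, 19 of them had their highest level of the 6 tissues in liver, 5 in heart, 4 in testis, 2 in brain and 2 in kidney. Of the 63 arms higher in spleen, 36 were highest in spleen, 20 in brain, 4 in testis, 2 in heart and 1 in kidney.

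The miRNAs of blood cells were detected in both tissues, and most were higher in spleen. mir-142, which all blood cells share, had both arms called higher in spleen. mir-142-3p had 46 and 39 reads in liver (122 and 93.9 rpm) and 1394 and 1243 in spleen (2335 and 2327 rpm), with a log2 fold change of -4.41 (-5.68 to -3.15, adjusted p = 0.000533). mir-142-5p had 98 and 154 reads in liver and 791 and 818 in spleen (-2.20, adjusted p = 0.0164), a call that 5 of the 6 scalings gave. In the further livers mir-142-3p lay between 321 and 671 rpm, closer to the spleens (log2 -1.56, adjusted p = 0.0113). The summed level of mir-142 in liver was 10.41% of that in spleen in BN-Lx and 12.04% in SHR.

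mir-223-3p, which shapes the maturation of granulocytes, was among the most abundant arms of the spleen. It had 73413 and 65200 reads in spleen (122977 and 122062 rpm) and 3440 and 4310 in liver (9101 and 10375 rpm). The libraries of each tissue were close to each other and the tissues did not overlap (log2 -3.66, -4.40 to -2.91, adjusted p = 5.4e-05). In the other tissues its mean ranged from 1154 rpm in brain to 8744 rpm in heart. The 5p arm had 53 and 52 reads in spleen and 5 and 4 in liver (-3.02, adjusted p = 0.0219). It met the minimum of reads through the spleens alone, so these values are a description.

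The other myeloid hairpin went the other way. hsa-mir-511-1-3p, which lies within the interval of Mrc1, the gene of the macrophage mannose receptor, had 42 and 56 reads in liver and 16 and 28 in spleen. Both livers (111 and 135 rpm) were above both spleens (26.8 and 52.4 rpm), with a log2 fold change of 1.69 (0.46 to 2.92, adjusted p = 0.0389) that was called under every scaling. The mean of the testes was higher (243 rpm), and the further livers were far higher, at 1822 to 2091 rpm (log2 6.35). Of the 3 tested arms of the myeloid list, 2 were thus higher in spleen (beside 22.4% of all arms) and 1 in liver (beside 11.4%). Of the 3, 1 met the minimum of reads in both spleens but not in both livers, so these counts are a description.

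Of the 11 hairpins of the lymphocyte list, 10 had reads and gave 14 tested arms. Of these, 10 were higher in spleen (beside 22.4% of all arms), 9 of them under every scaling (beside 11.4%), and 4 were not called. Of the 14, 9 met the minimum of reads in both spleens but not in both livers, so these counts are a description and not support for a change of the list. The median log2 fold change of the 14 was -2.70. mir-150-5p, which restrains B cell development, had 61122 and 26181 reads in spleen and 2063 and 2726 in liver (-3.59, -4.47 to -2.71, adjusted p = 0.000151). The BN-Lx spleen (102388 rpm) was above the SHR spleen (49014 rpm), yet both were above both livers (5458 and 6562 rpm).

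mir-342-3p had 5413 and 3801 reads in spleen and 37 and 261 in liver (-4.63, -6.28 to -2.99, adjusted p = 0.00133). The livers differed from each other (97.9 rpm in BN-Lx and 628 rpm in SHR), and both stayed below the spleens (9068 and 7116 rpm). mir-181c-5p, of the family that tunes T cell receptor signalling, had 160 and 196 reads in spleen against 9 and 25 (-2.94, adjusted p = 0.00431). mir-181a-1-5p and mir-181a-2-5p are 1 mature sequence with its reads divided evenly, and each had 666 and 306.5 reads in spleen and 39.5 and 62.5 in liver (-2.70, adjusted p = 0.00214).

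Not all of the list moved. mir-146a-5p, a brake on inflammatory signalling, overlapped between the tissues, with 371 and 1014.5 reads in liver and 795.5 and 1227.5 in spleen (log2 -0.15, interval -1.11 to 0.80, adjusted p = 0.797). Its relative mir-146b-5p, with the same seed, had 7 and 11.5 reads in liver and 33.5 and 69.5 in spleen (-1.91, adjusted p = 0.0408), called under 1 of the 6 scalings. The log2 values of mir-181b-1-5p, mir-181b-2-5p and mir-181d-5p were -1.72, -1.73 and -1.64, with adjusted p of 0.0855, 0.0847 and 0.1.

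The erythroid list gave 3 tested arms, all higher in spleen (beside 22.4% of all arms), 2 of them under every scaling (beside 11.4%). Of the 3, 1 met the minimum of reads in both spleens but not in both livers, so these counts are a description. mir-451-5p, which is cut by Argonaute rather than by Dicer and promotes red cell maturation, had 65634 and 27680 reads in spleen and 4304 and 4161 in liver. The spleens (109946 and 51820 rpm) were apart from each other and both above the livers (11386 and 10016 rpm), with a log2 fold change of -2.89 (-4.04 to -1.74, adjusted p = 0.00236). mir-144-5p of the same cluster had 1208 and 1256 reads in spleen and 94 and 86 in liver (-3.24, -4.37 to -2.11, adjusted p = 0.00124). The heart held more mir-451-5p than liver, with a mean of 25310 rpm, and the kidney less, with 1501 rpm.

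Summed over a list, the blood cell miRNAs of the livers were a small share of those of the spleens in both strains. The summed level in liver was 7.505% and 8.629% of that in spleen for the myeloid list in BN-Lx and SHR, 5.91% and 16.9% for the lymphocyte list and 10.4% and 18.8% for the erythroid list. Each sum was mostly 1 hairpin. In the BN-Lx spleen mir-223 held 73466 of 73482 myeloid reads, mir-150 61194 of 69344 lymphocyte reads and mir-451 65634 of 66907 erythroid reads. The shares thus do not describe members such as hsa-mir-511-1-3p and mir-146a-5p. No test of a difference between the lists was made.

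**Figure D2:**
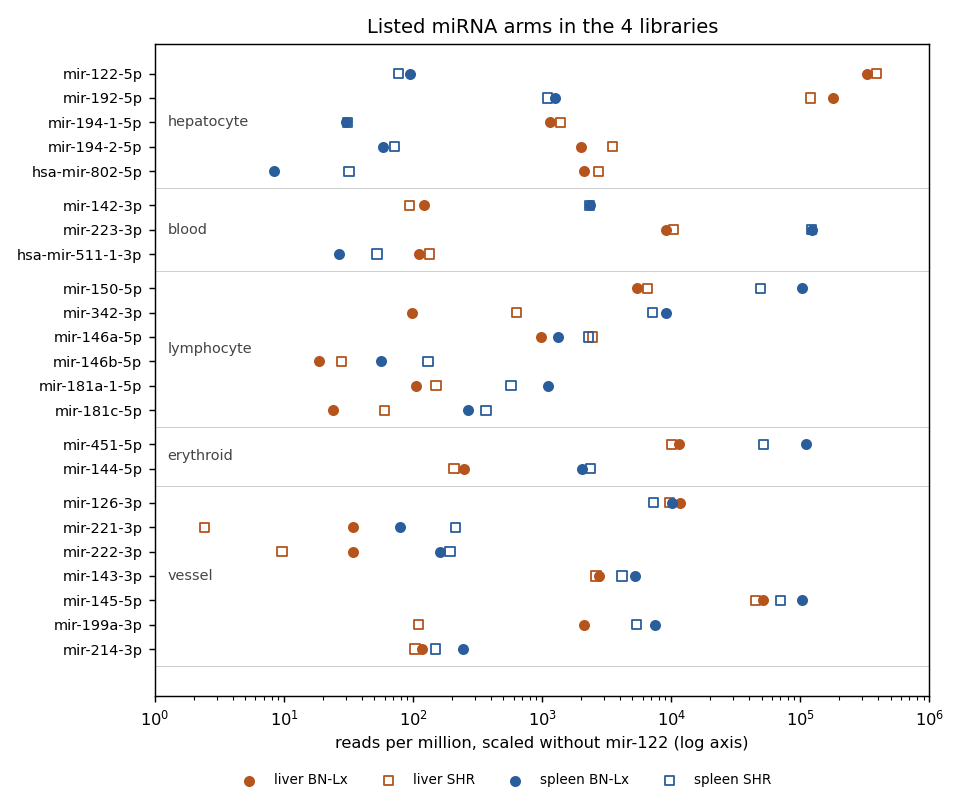
Level in rpm (log axis, scaled without mir-122) of listed arms in each of the 4 libraries, with liver in brown, spleen in blue, filled circles for BN-Lx and open squares for SHR. The hepatocyte arms lie far to the right in liver, the blood cell arms but for hsa-mir-511-1-3p and mir-146a-5p lie to the right in spleen, and mir-126-3p overlaps (11704 and 9633 rpm in liver, 10156 and 7281 rpm in spleen).

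Of the vessel miRNAs, mir-126 depended on the scaling and on the livers compared, and under TMM without mir-122 neither arm was called. mir-126-3p, which guards the integrity of endothelium, had 4424 and 4002 reads in liver and 6063 and 3889 in spleen. On the scaled level the libraries of the tissues overlapped, and the log2 fold change was 0.29 (-0.44 to 1.03, adjusted p = 0.506). Its 5p arm had 683 and 841 reads in liver and 619 and 613 in spleen, a log2 of 0.81 (-0.01 to 1.63, adjusted p = 0.109), and was called higher in liver under 3 of the 6 scalings (log2 up to 1.52). For mir-126-3p the estimate ran from 0.29 to 1.02 over the 6 scalings. In the further livers both arms were higher than in spleen, mir-126-3p with 26710 to 48000 rpm (log2 2.78, adjusted p = 0.000115) and mir-126-5p with 12050 to 15880 rpm (4.43, adjusted p = 6.24e-06).

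The other endothelial hairpins were scarce in liver. mir-221-3p had 13 and 1 reads in liver and 47 and 113 in spleen (-3.06, adjusted p = 0.0495), a call that 1 of the 6 scalings gave. mir-222-3p of the same cluster had 34.4 and 9.63 rpm in liver and 162 and 193 rpm in spleen (-2.93, interval -5.32 to -0.54, adjusted p = 0.058). For both arms the spleens were above the livers, and the SHR liver had fewer reads of each than the BN-Lx liver. Both met the minimum of reads in both spleens but not in both livers, so these values are a description. Of the 4 tested arms of the endothelium list, edgeR under TMM without mir-122 called 1 higher in spleen (beside 22.4% of all arms). It called 0 in liver (beside 11.4%), with 0 at an unadjusted p under 0.05. mir-126-5p was called higher in liver by DESeq2 and under 3 of the 6 scalings.

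Of the smooth muscle and fibroblast arms, 1 of 6 was called (beside 33.8% of all arms), and the fitted log2 values ran from -2.72 to -0.81. mir-145-5p, which keeps smooth muscle contractile, had 19316 and 18703 reads in liver and 61637 and 37196 in spleen. It was among the most abundant arms of both tissues (51102 and 45021 rpm in liver, 103251 and 69635 rpm in spleen), and its log2 fold change was -0.83 (-1.44 to -0.23, adjusted p = 0.0387). That call was given by 1 of the 6 scalings, and the value reached -0.12 under another. With the further livers mir-145-5p was instead called higher in liver (log2 0.91, adjusted p = 0.0223), at 86530 to 129500 rpm with no TMM factor. mir-143-3p of the same cluster had a log2 of -0.81 (-1.53 to -0.08, adjusted p = 0.0783) and mir-214-3p one of -0.82 (-1.80 to 0.17, adjusted p = 0.168). With the further livers mir-143-3p was called in spleen (-1.19, adjusted p = 0.00567) and mir-214-3p was not called (0.62, adjusted p = 0.224). mir-199a-3p had 791 and 46 reads in the livers, which lay far apart, and 4497 and 2883 in the spleens (-2.72, adjusted p = 0.0503). The list's median was -0.95, beside -0.60 over all arms.

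**Figure D3:**
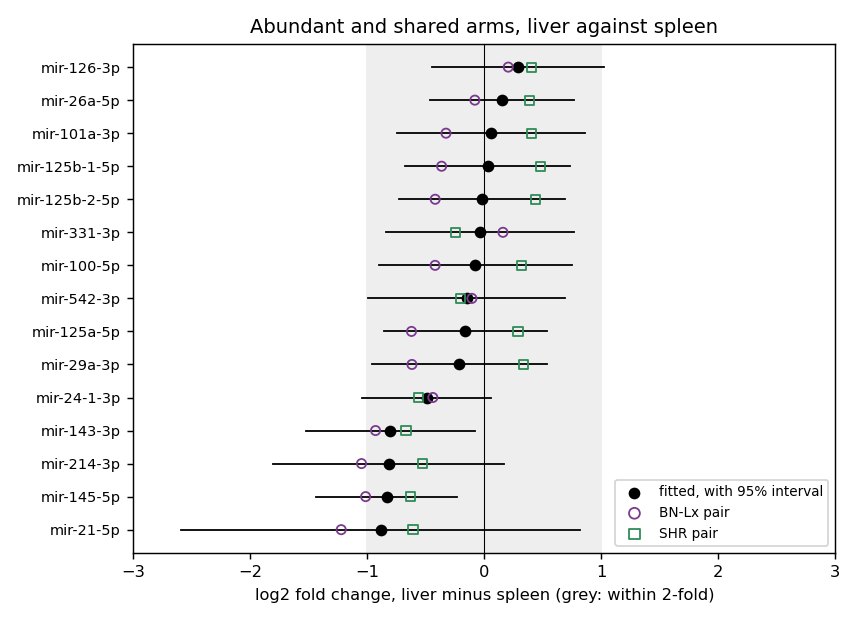
Log2 fold change of liver minus spleen for abundant and shared arms, with the fitted value and its 95% interval in black and the ratio in the BN-Lx and SHR pair as an open circle and square. The shaded band marks 2-fold in either direction, and the intervals of mir-26a-5p to mir-29a-3p lie inside it while that of mir-21-5p runs from -2.59 to 0.82.

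Of the 281 tested arms, 9 (3.2%) had an interval that lay within 2-fold in both directions. They were mir-26a-5p, mir-29a-3p, mir-100-5p, mir-101a-3p, mir-125a-5p, mir-125b-1-5p, mir-125b-2-5p, mir-331-3p and mir-542-3p. mir-26a-5p had 12992 and 12515 rpm in liver and 13743 and 9553 rpm in spleen (log2 0.15, -0.47 to 0.77), and was called higher in liver under 1 of the 6 scalings. mir-125a-5p had 8347 and 10315 rpm in liver and 12852 and 8447 rpm in spleen (-0.16, -0.86 to 0.53). mir-29a-3p, a repressor of collagen genes and among the most abundant arms of both tissues, had 49953 and 46665 rpm in liver and 76705 and 36913 rpm in spleen (-0.21, -0.96 to 0.54). For all 9 the livers and spleens overlapped, and all but mir-542-3p had opposite directions in the 2 strains. The counts of such arms moved with the scaling. With the further livers 5 of the 9 were called, mir-26a-5p (2.83), mir-101a-3p (2.28) and mir-542-3p (0.82) higher in liver and mir-29a-3p (-2.48) and mir-331-3p (-1.14) higher in spleen, so the closeness of these 5 holds for the 2 livers of the set only.

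The arms with the seed CCCUGAG, of mir-125a, mir-125b-1, mir-125b-2 and mir-351, lay between -0.38 and 0.03 and 0 of the 4 were called by edgeR, by DESeq2 or at an unadjusted p under 0.05. mir-21-5p, an abundant miRNA of many tissues, had 24187 and 33801 reads in liver and 89188 and 66317 in spleen. The spleens (149403 and 124153 rpm) were above the livers (63988 and 81365 rpm), but the interval of the log2 fold change of -0.89 was wide (-2.59 to 0.82, adjusted p = 0.382). mir-24-1-3p and mir-24-2-3p, whose reads are shared, had a log2 of -0.49 (-1.04 to 0.06, adjusted p = 0.142). mir-191-5p, also abundant in spleen, had 36089 and 20323 reads against 4731 and 4390 in liver (-2.07, -2.70 to -1.45, adjusted p = 0.000524), held under every scaling.

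The mir-17-92 cluster and its relatives, which are known to drive proliferation of lymphocyte precursors, were mostly higher in spleen under TMM without mir-122. Of 24 tested arms 14 were higher in spleen (beside 22.4% of all arms) and 0 in liver (0 also by DESeq2 and at an unadjusted p under 0.05), and 5 of the 14 held under every scaling (beside 11.4%). Of the 24, 6 met the minimum of reads in both spleens but not in both livers, so these counts are a description. The median log2 fold change of the 24 was -1.74. Of the X-linked copy, mir-363-3p had 204 and 241 reads in spleen and 4 and 10 in liver (-4.48, -6.66 to -2.29, adjusted p = 0.00694), and mir-20b-5p had 526 and 407 against 12 and 20 (-4.32, -6.64 to -1.99, adjusted p = 0.0113). mir-19b-2-3p, the list's most abundant arm, had 8982.5 and 8190 reads in spleen and 2830.5 and 3075 in liver (-1.03, adjusted p = 0.0408), called under 1 of the 6 scalings. mir-92a-1-3p overlapped between the tissues (-0.26, -1.50 to 0.98, adjusted p = 0.729). Of 6 arms with the seed AAAGUGC shared by mir-17 and mir-20, 3 were higher in spleen and the other 3 lay between -1.60 and -1.29. With the further livers mir-363-3p (-3.37) and mir-20b-5p (-2.63) were again called in spleen, while mir-19b-2-3p (0.43) and mir-92a-1-3p (-0.45) were not called. Other arms of the list went either way, such as mir-25-3p (-2.49) called in spleen and mir-20a-5p (2.71) in liver.

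Several arms with large fold changes in spleen stood in none of the blood cell lists. mir-204-5p had 1810 and 2088 reads in spleen and 90 and 104 in liver (-3.82, -4.65 to -2.99, adjusted p = 6.84e-05), and its mean was higher still in brain and testis (9569 and 14960 rpm). mir-211-5p, with the same seed, had 486 and 94 reads in spleen and 3 and 4 in liver (-5.56, -7.42 to -3.70, adjusted p = 0.000965), where the BN-Lx spleen was far above the SHR spleen (814 and 176 rpm). mir-7a-1-3p had 586 and 355 reads in spleen and 7 and 6 in liver (-5.61, -6.68 to -4.53, adjusted p = 3.83e-05). Its mean in brain was 1917 rpm, above both spleens (982 and 665 rpm). The further livers did not share this low level, with 406 to 549 rpm (no TMM factor) against 18.5 and 14.4 rpm in the 2 livers. The arm was not called with them (log2 -0.00, adjusted p = 0.99). mir-211-5p and mir-7a-1-3p met the minimum of reads through the spleens alone, so their p-values are a description and not support.

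mir-217-5p, known from the acinar cells of the pancreas, had 101 and 135 reads in spleen and 0 in both livers. It was at least 21.3-fold lower in the BN-Lx liver (3 reads taken for 0), with a greater bound in SHR, and passed the filter on reads through the spleens alone (adjusted p = 0.0197). Of the pancreas list's 4 hairpins, all had reads in spleen, and its summed level was 270 and 657 rpm in the spleens and 42.3 and 53.0 rpm in the livers. hsa-mir-216b-5p had 11 and 47 reads in spleen and 0 in liver (adjusted p = 0.0511). mir-216a-5p had 3 and 4 against 0. mir-375-3p, known from islet cells, had 42 and 150 reads in spleen and 16 and 22 in liver (-1.59, adjusted p = 0.246). The tail of the pancreas lies beside the spleen, and the part of pancreas cells in these values was not tested.

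The heart and skeletal muscle arms had few reads in either tissue. Of the list's 8 arms with reads 4 were tested, and each met the minimum of reads in both livers but not in both spleens, so that the 4 calls in liver (beside 11.4% of all arms) are a description and not support for a change of the list. mir-206-3p, of skeletal muscle, had 42 and 21 reads in liver and 2 and 1 in spleen (4.78, adjusted p = 0.00977), and mir-1-3p had 27 and 16 against 0 and 3 (4.26, adjusted p = 0.0103). In the further livers mir-206-3p ran from 0.606 to 229 rpm and was not called (log2 5.97, adjusted p = 0.0614). mir-133a-3p had 25.5 and 24.5 reads in liver against 8.5 and 19 in spleen (1.43, adjusted p = 0.0492), called under 5 of the 6 scalings. The list summed to 323 and 212 rpm in the livers and 31.8 and 73.0 rpm in the spleens, and the part of muscle cells was not tested.

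Calls in the remaining lists stand beside 11.4% of all tested arms higher in liver and 22.4% in spleen. No list was tested against these shares. Of the metabolic list (miRNAs known from lipid and glucose metabolism, such as mir-33 and mir-378), 0 of 10 tested arms were called by edgeR under TMM without mir-122 or by DESeq2, with 2 at an unadjusted p under 0.05, while mir-107-3p was called higher in liver under 2 of the 6 scalings (log2 up to 1.22). mir-378-5p of this list had 681 and 1556 reads in liver and 883 and 91 in spleen (2.68, -1.42 to 6.79). Of 17 let-7 arms 2 were higher in spleen, let-7i-3p (-3.15, adjusted p = 0.0134), which held under every scaling, and let-7i-5p (-1.74), called under 1 of the 6. The family's median was 0.24. let-7f-2-5p was called higher in liver under 3 of the 6 scalings (log2 up to 1.24). With the further livers let-7f-2-5p was called in liver (2.40) and let-7i-3p in spleen (-3.005). The mir-30 family had 1 of 10 arms higher in liver and the mir-29 family 2 of 8 higher in spleen. In the latter, mir-29b-2-3p had a log2 of -1.49 (adjusted p = 0.00671, called under 5 of the 6 scalings) and mir-29c-3p one of 1.29 (0.28 to 2.30, adjusted p = 0.0503), called higher in liver under the 5 other scalings. With the further livers neither was called, at -0.65 (adjusted p = 0.0927) for mir-29b-2-3p and -0.46 (adjusted p = 0.458) for mir-29c-3p, the latter with the other sign. Of the mir-15 and mir-16 family, 1 of 8 arms was called, mir-15b-5p at -1.99 (adjusted p = 0.0128). Of the neuron list, the 2 tested arms were those of mir-128, and both were called in spleen but not under every scaling, while mir-124 and mir-9 had too few reads. The 3 tested epithelial arms and the 3 tested arms of male germ cells were not called, by DESeq2 either, and 0 had an unadjusted p under 0.05.

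**Figure D4:**
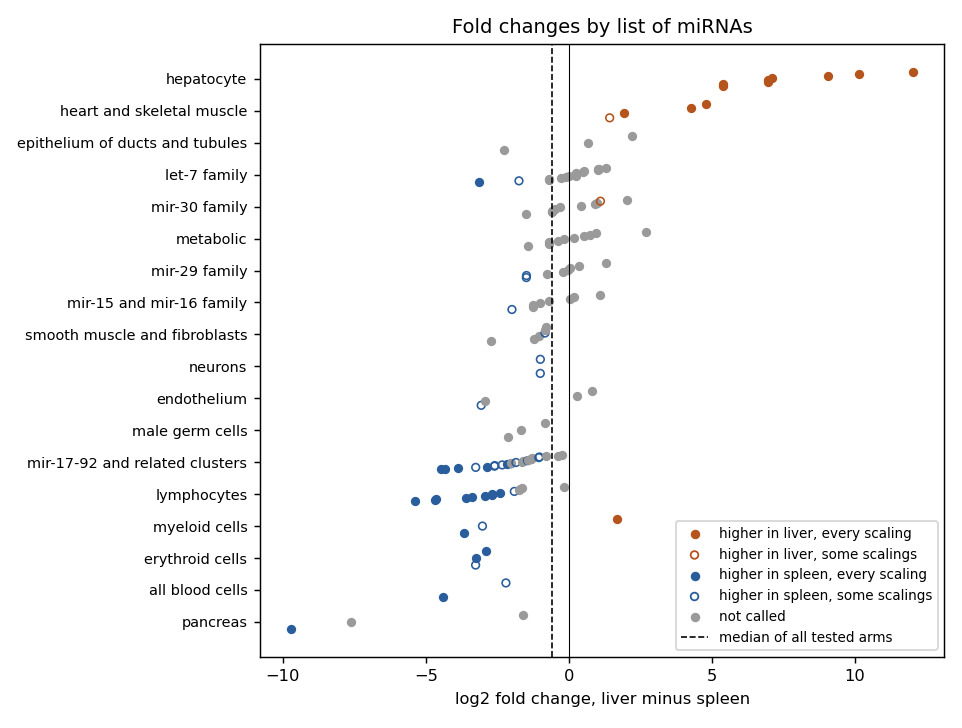
Log2 fold change of liver minus spleen (x axis) of every tested arm in each list of miRNAs, ordered by the list's median, with points filled in brown or blue where the call held under every scaling, open where it held under some, and grey where it was not called. The hepatocyte list lies at 5.38 to 12.04, the blood cell lists lie left of the dashed line at the median of all arms (-0.60) but for hsa-mir-511-1-3p and mir-146a-5p, and most let-7, mir-30 and mir-29 arms lie near 0.

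Arms that share a seed or a place on a chromosome were compared by their calls. Among 254 arms with a sequence there were 181 seeds, 38 of them shared by several arms. In 22 of these groups at least 1 arm was called, and under TMM without mir-122 arms were called in both directions in 0 of them. Other scalings gave 2 exceptions. The mir-29 arms with the seed AGCACCA had calls in both directions under 4 of the 6 scalings, mir-29c-3p in liver and mir-29b in spleen, and those with the seed AGCAGCA had them under 2, mir-322-5p in liver and mir-15b-5p in spleen. With the further livers mir-29c-3p and mir-29b were not called, while mir-322-5p (2.05) and mir-15b-5p (-0.94) were called in the same directions. All 3 tested arms of the mir-192 and mir-194-2 cluster were higher in liver, and all 3 of the mir-144 and mir-451 cluster were higher in spleen. In the cluster of mir-191 and mir-425, 3 of 4 arms were higher in spleen. Arms of 1 seed or cluster are not independent, since copies share reads and neighbours may share a transcript.

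The choice of arm differed between the tissues for few hairpins. Of 118 hairpins with at least 30 reads in each of the 4 libraries, 2 differed in the share of the 5p arm by at least 20 percentage points in the same direction in both strains. For mir-142 the 5p arm held 68.1% (Wilson 95% interval 60.1 to 75.1) and 79.8% (73.6 to 84.9) of the reads in liver and 36.2% (34.2 to 38.2) and 39.7% (37.6 to 41.8) in spleen. For mir-7a-1 it held 89.8% (82.1 to 95.9) and 93.2% (85.9 to 96.8) in liver and 26.5% (23.6 to 29.7) and 56.97% (53.6 to 60.3) in spleen, where the 5p reads are shared with the copy mir-7a-2. In the 4 further livers the 5p share of mir-7a-1 was lower, 30.7% to 49.2%, and that of mir-142 ran from 23.45% to 61.1%, so the high shares of the 2 livers were not found there. The intervals cover counting error only, since reads without molecular tags are not independent molecules, and no test was made. The most frequent 5' ends were the same for nearly all arms. Of 93 arms with at least 100 reads in each library, 92 had the same most frequent start in all 4 libraries, and the other, mir-505-3p, had another start in the BN-Lx spleen.

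**Figure D5:**
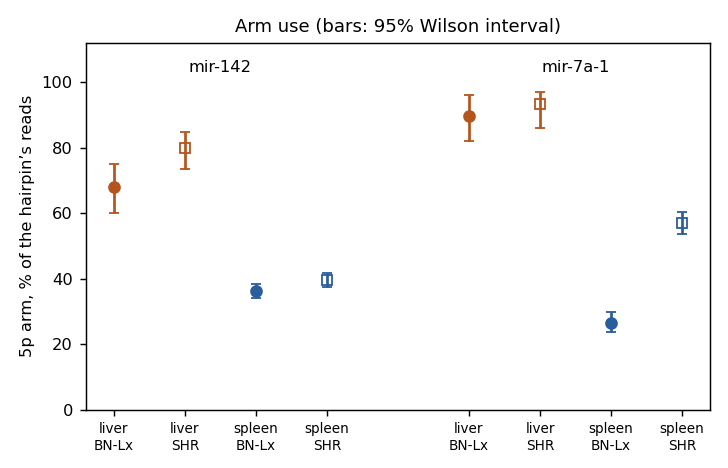
Share of a hairpin's reads that came from its 5p arm (y axis, percent) in the 4 libraries for mir-142 and mir-7a-1, with 95% Wilson intervals that cover counting error only. For both hairpins the livers (brown) lie above the spleens (blue), at 68.1% and 79.8% against 36.2% and 39.7% for mir-142.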

How the data were processed

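Small RNAs of 15 to 40 nt from whole tissue were sequenced on SOLiD. For each library the authors deposited estimated counts of reads for every pair of end points on a hairpin, not normalized, with perfect matches only (SHRiMP, hairpins on RGSC3.4) and reads that fit several hairpins divided between them. Here they were summed per hairpin arm (midpoint within 20 nt of the peak) and rounded. Arms with at least 10 reads in at least 2 of the 4 libraries were tested with edgeR 4.0.16 (R 4.3.3, quasi-likelihood F test, two-sided, Benjamini-Hochberg at 0.05, intervals from the F statistic), fitted on the 12 libraries of the six-tissue set, which share 1 estimate of the spread, with tissue and strain as terms. Library sizes and TMM factors left out mir-122. DESeq2 1.42.0 was an alternative. All tissues of a strain came from 1 rat, so strain is the pairing, and it stands in the fit reported.

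Tissue groups came from the labels. Named arms are the dominant arm of each hairpin in the lists of hepatocytes, blood cells, vessels and pancreas, the 8 called arms with the highest and the 8 with the lowest log2 fold change that met the 5-fold rule with a mean of 50 reads, the 8 with most reads in each tissue, the 10 with most reads within 2-fold, and of other lists the arm with most reads and those with the highest and lowest values. let-7i-5p, mir-1-3p, mir-20a-5p, mir-25-3p, mir-107-3p, mir-216a-5p and mir-505-3p were named after their values were seen. The members and the lists were chosen with earlier results of these data known. The fit was tested on simulated counts. The piRNA list was not used here, and mature sequences were taken from RefSeq (GRCr8).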

Additional observations from a re-analysis of the deposited data

Results flagged for a closer look

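Of the 281 tested arms, 51 had a liver to spleen ratio of opposite direction in the BN-Lx and the SHR pair, and under TMM without mir-122 edgeR called 0 of these, DESeq2 called 0 and 0 had an unadjusted p under 0.05, while over the 6 scalings 1 was called, mir-26a-5p. Among the named arms there were 10. With 1 library per tissue and strain the difference was not tested. As SHR minus BN-Lx differences of the log2 ratio, the values were 0.74 for mir-100-5p, 0.73 for mir-101a-3p, 0.91 for mir-125a-5p, 0.84 for mir-125b-1-5p, 0.86 for mir-125b-2-5p, 0.53 for mir-146a-5p, 0.47 for mir-26a-5p, 0.96 for mir-29a-3p, -0.40 for mir-331-3p and 0.80 for mir-92a-1-3p.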

How the results depend on the processing

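The replicate block is the strain, since each rat gave both tissues; with no replicate block edgeR called 32 arms in liver and 70 in spleen, and 9 intervals lay within 2-fold. Scaling moved the split of 32 and 63: TMM with mir-122 gave 49 and 32 (median arm shifted by 0.71 on the log2 scale), total reads 39 and 37 (14 within 2-fold), the median arm (chosen after seeing the data) 42 and 39. Summing copies gave 33 and 37 of 259 arms. The 4 libraries alone, with 1 residual degree of freedom, gave 20 and 9. Of the settings run, the further livers alone changed the sign of called arms (8 of 95, and 60 of those not called), while uncalled arms near 0 such as mir-24-1-3p (-0.49 to 0.24) changed sign between scalings. Those livers, in place of the 2, gave 97 arms higher in liver and 56 at 5-fold. With them 29 of the 32 liver calls were again called in liver and 3 were not called. Of the 63 spleen calls 39 were again called in spleen, 23 were not called and 1 was called in liver. The further livers are other samples, not paired with the spleens, so sample set and tissue cannot be told apart. Of the arms named by rule and called in at least 1 of the fits, mir-133a-3p (-0.18), mir-145-5p (0.91), mir-146a-5p (1.21), mir-19b-2-3p (0.43) and mir-542-3p (0.82) changed sign. Named arms called in neither fit, such as mir-21-5p (-0.89 to 0.50), changed sign as well.

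Leaving out 1 library gave 17 (without the BN-Lx liver) to 29 (without the SHR spleen) arms in liver, 15 (without the SHR spleen) to 42 (without the SHR liver) in spleen and 0 (without the BN-Lx liver) to 7 within 2-fold. The lone library was assumed to vary like the other tissues. Without the SHR liver 20 arms were called in liver, without the BN-Lx liver 24 in spleen, and without the BN-Lx spleen 17. The 5-fold rule in the remaining strain took 30 arms in liver and 53 to 62 in spleen; without a minimum of reads it took 35 and 74, and at 2-fold 35 and 87. For these the cause was not tested. A strain has 1 rat, and strain is a term of the fit. The p-values thus rest on how far the difference between the 2 rats varied from tissue to tissue, and not on the variation among animals of a strain. Arms with few reads, such as those of muscle and pancreas, are limited by depth.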
